A study of Rattus norvegicus with 48 samples.

Results

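Red blood cells carry a small set of microRNAs (miRNAs) at very high levels, and 4 of them were followed here in rat plasma: rno-miR-451-5p, rno-miR-144-3p, rno-miR-144-5p and rno-miR-486 (the prefix rno, for rat, is left out where no level follows). They were chosen by name as 4 of the 645 mature miRNAs in the count table, because miR-451 and miR-144 are made from 1 primary transcript and miR-486 from another locus. All 4 had reads in every one of the 48 samples and passed the filter on low levels in every comparison.

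The samples are plasma of 12 male rats, 12 weeks old and Sprague-Dawley by the study's methods (its text elsewhere names Wistar rats, and the labels no strain), in which a calvarial (skull roof) defect was either left empty or filled with a collagen/hydroxyapatite (CHA) scaffold. The scaffold was used alone, with plasmid DNA for BMP2 and miR-590-5p, or with extracellular vesicles (EVs) of mesenchymal stromal cells. From these 4 treatments, 6 strong and 6 weak regenerators were picked by microCT of the healing bone, so both groups mix treatments, strong regenerators were found in every treatment, and no weak regenerator had the bare scaffold. Which rat had which treatment is not given in the labels, so treatment and regeneration group cannot be told apart here. Blood was taken from each rat before surgery (week 0, baseline) and at weeks 1, 4 and 8, which gives 6 samples per group and time point.

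Mature miRNAs are cut from hairpin precursors, and both arms of a hairpin can yield one (5p and 3p). The transcript of miR-144 and miR-451 is switched on by the erythroid factor GATA1. miR-144 is matured by Dicer in the usual way, whereas miR-451 is cut by Argonaute2 without Dicer and accumulates as the red cell matures. miR-486 lies in the gene of the erythrocyte membrane protein ankyrin 1 and is also expressed in muscle. Since plasma should hold no intact red cells, these miRNAs are read in plasma as a trace of cells that broke in the body or in the tube (haemolysis), and the ratio of miR-451 to miR-23a, a miRNA that red cells hold little of, is the usual measure of it.

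The mature sequences, from RefSeq (build GRCr8, plus strand of chromosome 10), are shown because the results turn on differences between these arms. Capitals mark the seed, bases 2 to 8, with which a miRNA recognises its targets.
miR-451-5p: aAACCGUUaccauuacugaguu
miR-144-3p: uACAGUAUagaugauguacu
miR-144-5p: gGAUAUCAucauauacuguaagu
The 3 seeds all differ. The 3 RNAs are 22, 20 and 23 bases long and low in G and C (36.4% in miR-451-5p and 30.4% in miR-144-5p). RefSeq sequences matched 3 of the 4 miRNAs, and miR-486 is named only.

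In the genome, miR-144-5p lies at chr10:63459409-63459431, miR-144-3p at chr10:63459446-63459465 and miR-451-5p at chr10:63459585-63459606. The hairpins are printed with the measured miRNAs in capitals. They show that miR-144-5p and miR-144-3p face each other across 1 hairpin. In the next, miR-451-5p starts in the 5′ arm and runs on past its paired bases.
Mir144 hairpin: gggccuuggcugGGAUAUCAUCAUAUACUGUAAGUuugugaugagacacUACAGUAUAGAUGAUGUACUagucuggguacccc
Mir451a hairpin: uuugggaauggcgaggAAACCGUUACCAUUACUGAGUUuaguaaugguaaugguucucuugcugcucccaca
Only 89 bases separate them. The build differs from the Rnor_6.0 genome to which the authors mapped their reads.

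Levels are given as reads per 1000000 miRNA reads (RPM), so each is a share of the library and not an amount per volume of plasma. The libraries held between 393259 and 1586400 miRNA reads. The 12 week 8 libraries stood apart from the other 36 in UniSp2, a synthetic RNA added at extraction, with 91.1 to 144 UniSp2 reads per 1000 miRNA reads against 23.3 to 60.4. The labels name no batch, so a batch of the week 8 samples and the time since surgery cannot be told apart. The directions of the 4 miRNAs at week 8 are therefore given with the value after scaling to UniSp2. The fold changes otherwise rest on TMM factors, which assume that most miRNAs do not change, and RLE is the counterpart used by DESeq2. In bulk plasma, the number of cells that released RNA and the RNA released per cell also cannot be told apart.

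rno-miR-451-5p was the most abundant miRNA of all, with a mean of 109039 RPM (SD 38675, n = 48 samples) or 10.9% of the miRNA reads. rno-miR-486 ranked number 3 with 83551 RPM (SD 17361). The 2 arms of miR-144 were far rarer: rno-miR-144-3p, the arm usually taken as the guide, had 3678 RPM (SD 1198) and rno-miR-144-5p 1103 RPM (SD 435). The miR-144 hairpin is thus read at a small fraction of the miR-451 hairpin made from the same transcript. Together the 4 miRNAs took a median of 15.8% of the miRNA reads before surgery. In the later samples the median was 19.7% (week 1), 18.3% (week 4) and 23.5% (week 8). Counting error was small at these levels, since the smallest count was 235 reads, for miR-144-5p.

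**Figure D1:**
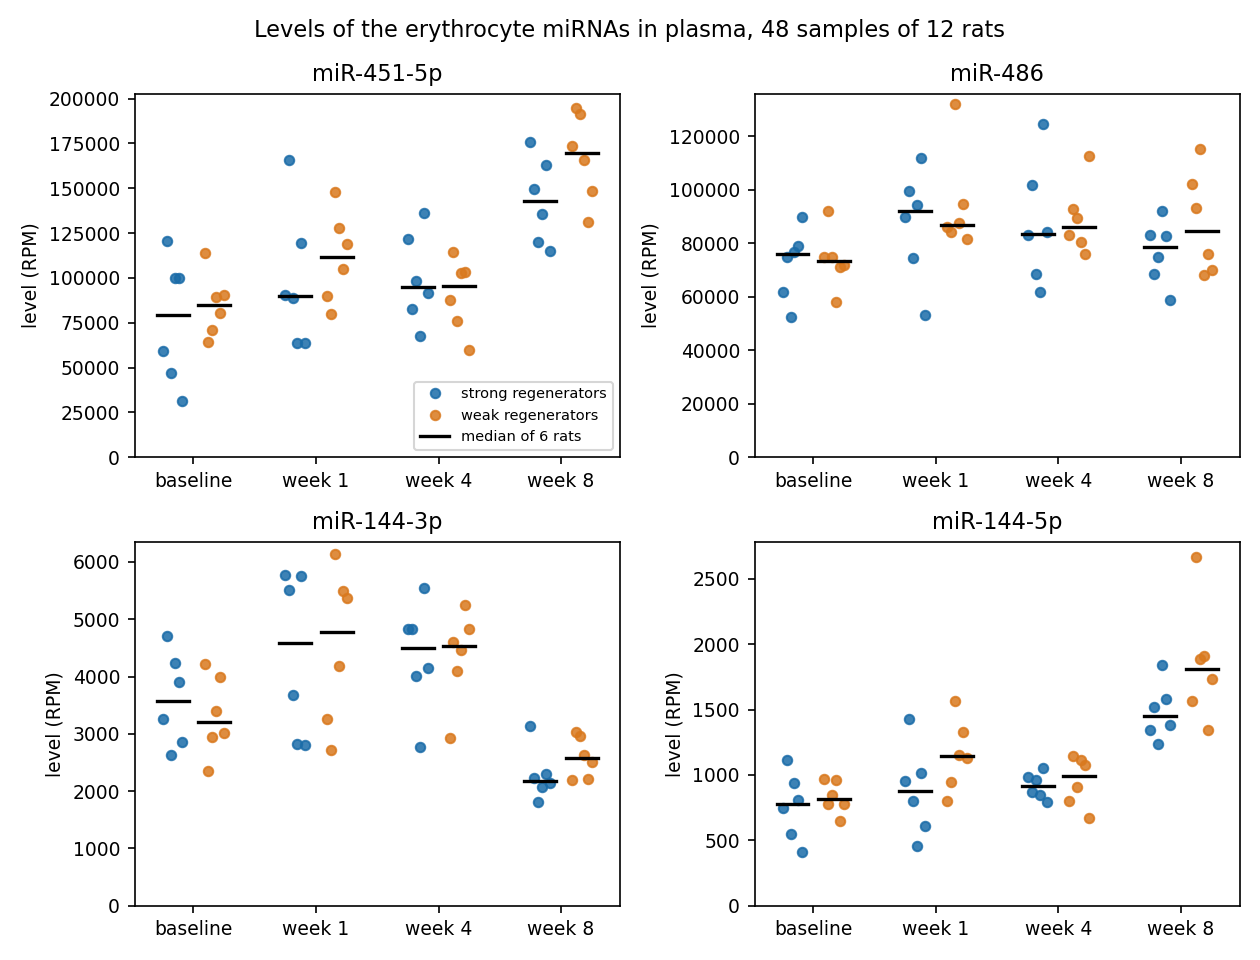
Level of each miRNA in RPM (linear axis) at baseline and weeks 1, 4 and 8, with 1 point per rat and a line at the median of 6 strong or 6 weak regenerators. At week 8 miR-451-5p and miR-144-5p sat high and miR-144-3p low on this scale, while the strong and weak regenerators overlapped throughout. Scaled to UniSp2, miR-451-5p and miR-144-5p were instead lower at week 8 than at baseline.

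One week after surgery all 4 miRNAs were higher than at baseline, by about the same factor. All comparisons with baseline share the same 12 baseline samples. miR-451-5p had between 31117 and 120479 RPM at baseline (median 84758) and between 63520 and 165594 RPM at week 1 (median 97772). It was higher at week 1 in 10 of 12 rats, all but rats 3 and 21. The ranges overlapped widely, with 3 of the 12 week 1 samples above every baseline sample. The log2 fold change was 0.52 (SE 0.19, edgeR quasi-likelihood test with Benjamini-Hochberg adjustment, FDR = 0.0466).

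The partner arms from the same transcript moved by similar amounts. miR-144-3p went from 2353 to 4710 RPM at baseline (median 3328) to 2723 to 6133 RPM at week 1 (median 4777), a log2 fold change of 0.50 (SE 0.17, edgeR, FDR = 0.0304). miR-144-5p went from 408 to 1111 RPM (median 794) to 455 to 1563 RPM (median 985), a log2 fold change of 0.48 (SE 0.18, edgeR, FDR = 0.0466). miR-144-3p was lower in rats 3, 21 and 29 and miR-144-5p in rats 3 and 21, and both were higher in the other rats. miR-486, from its own locus, had 52351 to 92106 RPM at baseline (median 74916) and 53079 to 132058 RPM at week 1 (median 88712). It was higher in 10 of 12 rats (log2 fold change 0.43, SE 0.16, edgeR, FDR = 0.0466).

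So 4 of 4 were called higher at week 1, where 29 of 232 miRNAs tested (12.5%) were called higher and 21 (9.05%) lower. With the library size as the only scaling the split was 7 higher and 25 lower, and with UniSp2 scaling 3 higher and 59 lower. These calls lay close to the threshold. Among the other tools, DESeq2 called 3 of the 4 and limma-voom 0, with 4 of 4 at an unadjusted p under 0.05 in both. Over all miRNAs, DESeq2 called 59 and limma-voom 34, with 108 and 117 at an unadjusted p under 0.05. Leaving out 1 rat left 0 calls for rats 2, 7, 16, 17, 23, 25 and 26, 1 call for rats 3, 5 and 29, and 3 calls for rats 6 and 21. With UniSp2 scaling the log2 fold changes stayed positive, between 0.14 and 0.20, and none passed.

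At week 4 the medians of the 4 miRNAs lay between those of baseline and week 1. Medians were 94879 RPM for miR-451-5p, 4532 for miR-144-3p, 933 for miR-144-5p and 83657 for miR-486. miR-451-5p and miR-144-5p were above baseline in 8 of 12 rats, and miR-144-3p and miR-486 in 10 of 12. The log2 fold changes against baseline lay between 0.34 (miR-144-5p) and 0.46 (miR-144-3p), but with UniSp2 scaling those of miR-451-5p and miR-144-5p were both -0.02 and none of the 4 was called.

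None of the 4 was called at week 4 by edgeR, where FDR lay between 0.132 and 0.310, nor by DESeq2 or limma-voom. An unadjusted p under 0.05 was reached by 2 of the 4 with edgeR and DESeq2 and by 3 with limma-voom. Over all miRNAs it was reached by 115 with edgeR, 103 with DESeq2 and 101 with limma-voom. Across all 645 miRNAs, 1 (0.155%) was called higher and 26 (4.03%) lower. Leaving out rat 21 brought miR-144-3p past the threshold (log2 fold change 0.54, edgeR, FDR = 0.0425).

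Between weeks 1 and 4 none of the 4 was called by edgeR (log2 fold changes from -0.15 to -0.03, 0 with an unadjusted p under 0.05), DESeq2 or limma-voom. In that comparison 0 of 645 miRNAs (0.0%) were called higher and 0 (0.0%) lower by edgeR, 79 had an unadjusted p under 0.05, and DESeq2 called 1 and limma-voom 0.

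Week 8 split the group that had moved together at week 1. miR-451-5p reached 114998 to 194617 RPM (median 156208) and was above its own baseline in 12 of 12 rats. Of the 12 samples, 10 lay above every baseline sample. The log2 fold change was 1.04 (SE 0.19, edgeR, FDR = 1.03e-05), and it was -0.93 (edgeR, FDR = 0.000394) with UniSp2 scaling. Within a rat, the level rose between 1.24-fold (rat 5) and 3.70-fold (rat 29) on the RPM scale.

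miR-144-5p followed the same course. Its levels of 1238 to 2668 RPM at week 8 (median 1572) lay entirely above those of baseline and week 4. The share of all miRNAs that separated in this way is not given here. All 12 rats were above their own baseline, by a median of 2.03-fold in RPM. The log2 fold change was 1.15 (SE 0.18, edgeR, FDR = 4.09e-07), and -0.79 (edgeR, FDR = 0.00123) with UniSp2 scaling.

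miR-144-3p, cut from the other arm of the same hairpin, went the other way. It had 1817 to 3130 RPM at week 8 (median 2264), with 7 of 12 samples below every baseline sample. It was lower than baseline in 10 of 12 rats, all but rats 6 and 7 among the weak regenerators. The log2 fold change was -0.41 (SE 0.17, edgeR, FDR = 0.0449), and -2.36 (edgeR, FDR = 5.07e-14) with UniSp2 scaling. The call against baseline was fragile: it was lost with RLE scaling (-0.28, edgeR, FDR = 0.180), with factors computed without the 4 miRNAs (-0.25, edgeR, FDR = 0.238), with DESeq2, and without any 1 of rats 3, 5, 7, 16, 17, 21, 23, 25, 26 and 29 (-0.43 to -0.22, edgeR, FDR from 0.0501 to 0.302).

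miR-486 was not called at week 8 with TMM, but was with some other settings. It had 58970 to 115189 RPM at week 8 (median 79360), was above baseline in 9 of 12 rats, and had a log2 fold change of 0.25 (SE 0.16, edgeR, FDR = 0.200). With UniSp2 scaling it was -1.68 (edgeR, FDR = 3.89e-12). Leaving out rat 23 gave 0.43 (edgeR, FDR = 0.0257) and leaving out rat 29 gave 0.42 (edgeR, FDR = 0.0311), and it also passed with RLE scaling (0.39, edgeR, FDR = 0.0384), with factors computed without the 4 miRNAs (0.43, edgeR, FDR = 0.0262) and with DESeq2 (0.39, FDR = 0.0325). Under these 3 settings miR-144-3p was not called, so that 3 of the 4 were called higher and 0 lower. Over all miRNAs, 105 were called higher and 138 lower with RLE scaling. The counts were 106 and 130 with factors computed without the 4 miRNAs, and 101 and 130 with DESeq2. The study reported miR-486 as significantly higher than baseline at every time point after surgery. Here, by edgeR with TMM and all rats, miR-486 was called at week 1 but not at week 4 or week 8. The reason for this difference was not tested.

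At week 8, therefore, 2 of the 4 were called higher and 1 lower, where 88 of 620 miRNAs (14.2%) were called higher and 162 (26.1%) lower. With UniSp2 scaling 1 miRNA was called higher and 498 lower. Over the 310 miRNAs with at least 10 RPM, the median at week 8 was -0.12 with TMM and -2.01 with UniSp2 scaling. Relative to that median, the values of both scalings lay close together: miR-451-5p stood at 1.16 with TMM and 1.08 with UniSp2, miR-144-5p at 1.27 and 1.23, miR-486 at 0.38 and 0.33, and miR-144-3p at -0.28 and -0.35.

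**Figure D2:**
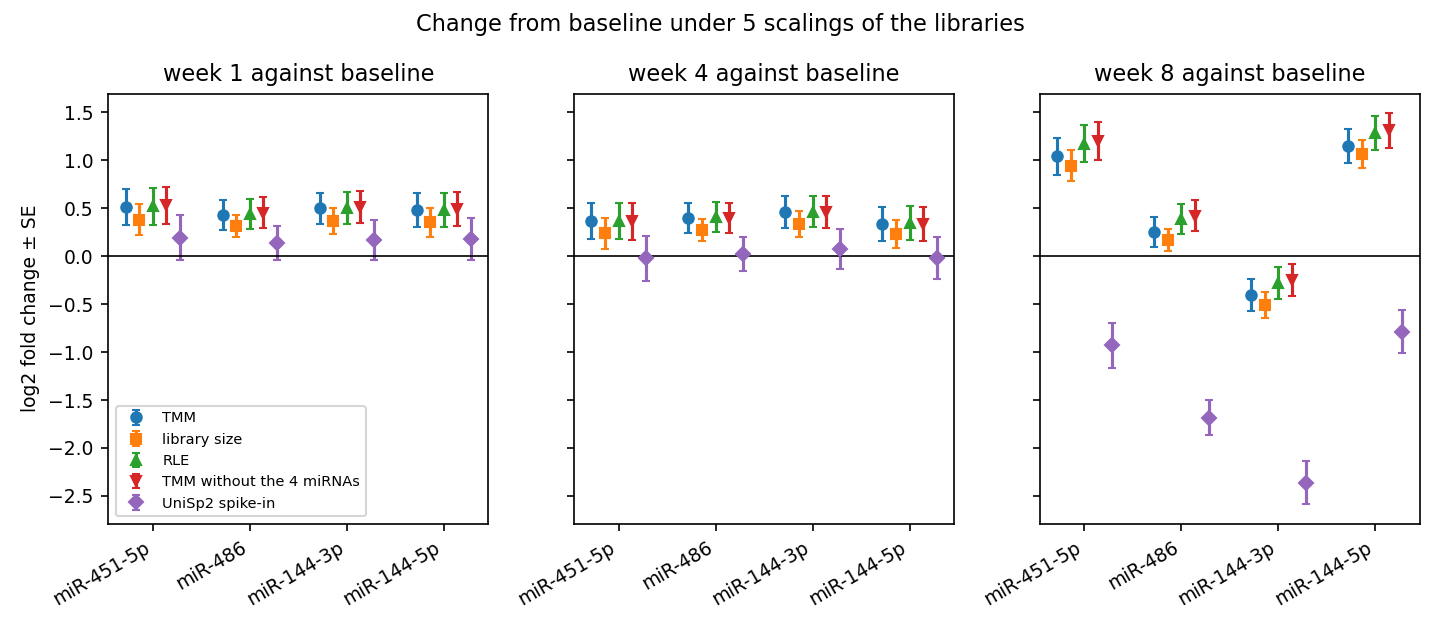
log2 fold change (± SE) of each miRNA against baseline at weeks 1, 4 and 8 under 5 scalings of the libraries. At week 8 the UniSp2 values are shifted down as a block, so that miR-451-5p (-0.93), miR-144-5p (-0.79) and miR-486 (-1.68) lie below 0 like miR-144-3p, but the order of the 4 miRNAs is the same under all 5 scalings.

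Against week 4 the split at week 8 was wider. miR-144-3p was lower in 12 of 12 rats (log2 fold change -0.86, SE 0.17, edgeR, FDR = 2.29e-05, and -2.44 with UniSp2 scaling), at a median of 0.555 times its week 4 level in RPM. miR-451-5p was higher in 12 of 12 (0.68, SE 0.19, edgeR, FDR = 0.00290, but -0.91 with UniSp2 scaling). miR-144-5p was also higher in 12 of 12 (0.81, SE 0.18, edgeR, FDR = 0.000161, but -0.77 with UniSp2 scaling). miR-486 was split, with 7 rats higher and 5 lower (-0.14, SE 0.16, edgeR, FDR = 0.479, but -1.71 with UniSp2 scaling). Again 2 of 4 were called higher and 1 lower, beside 76 of 532 miRNAs (14.3%) higher and 137 (25.8%) lower. RLE scaling split the calls into 106 higher and 112 lower, and UniSp2 scaling into 1 higher and 467 lower. The calls of miR-451-5p, miR-144-5p and miR-144-3p against week 4 held without any 1 rat.

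The ratio of a pair of miRNAs within 1 library contains no scaling factor, so ratios show the split without that choice. The miR-144 hairpin yielded a median of 4.36 reads of miR-144-3p per read of miR-144-5p at baseline, 4.35 at week 1 and 4.70 at week 4. At week 8 the median was 1.46. The 12 week 8 samples ranged from 1.12 to 2.33 and the other 36 from 2.87 to 7.24, with no overlap. The share of other hairpins whose arm ratio separated in this way is not given here. Within rats the log2 ratio of 5p to 3p rose by 1.57 on average (SD 0.36, 12 of 12 rats; exact sign-flip permutation test, p = 0.000488, adjusted p = 0.00244 over 15 tests). This p is the smallest that 12 rats allow. At weeks 1 and 4 the same ratio changed by -0.01 (SD 0.35) and -0.08 (SD 0.41), with adjusted p of 0.912 and 0.819 in the exact permutation test.

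miR-451-5p moved with the 5p arm and not with the 3p arm. Per read of miR-144-3p there were medians of 24.9, 23.4 and 23.8 reads of miR-451-5p at baseline and weeks 1 and 4, and 64.3 at week 8. Week 8 samples (53.9 to 79.1) again lay above all others (10.9 to 30.5), and the share of other pairs that did so is not given here. The log2 ratio rose by 1.51 (SD 0.34, 12 of 12 rats, exact permutation adjusted p = 0.00244). Per read of miR-144-5p, in contrast, the medians were 99.6, 108, 98.0 and 97.3 reads. That log2 ratio changed by -0.06 at week 8 (SD 0.35, 4 of 12 rats up, exact permutation adjusted p = 0.819).

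miR-486 and miR-451-5p, from separate loci, parted at week 8 as well. There were medians of 0.838, 0.897 and 0.912 reads of miR-486 per read of miR-451-5p at baseline and weeks 1 and 4, and 0.510 at week 8. The log2 ratio fell by 0.86 (SD 0.64, 12 of 12 rats down, exact permutation adjusted p = 0.00244). The ranges overlapped here: the week 8 value was below all 36 earlier ones in 9 rats and among them in 3.

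**Figure D3:**
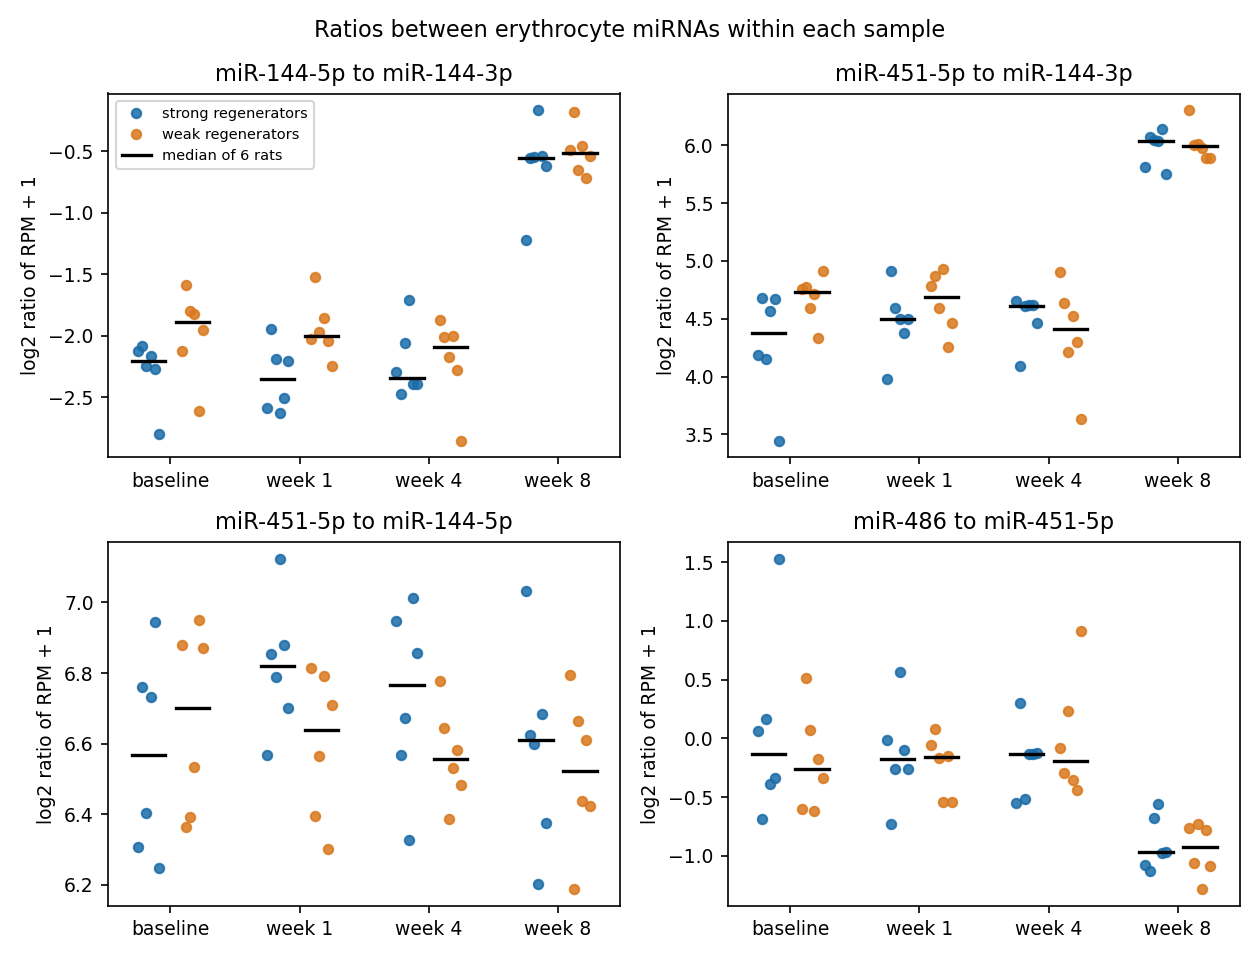
log2 ratio of 4 pairs of miRNAs in each sample (RPM + 1, 1 point per rat, line at the median of 6 rats) at baseline and weeks 1, 4 and 8. The week 8 points are clear of all others for both ratios with miR-144-3p, mostly below the others for miR-486 to miR-451-5p, and level with the others for miR-451-5p to miR-144-5p.

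The arm shift of miR-144 was set beside those of other hairpins. Among 76 hairpins of which both arms had at least 10 RPM, paired by name, the log2 fold changes of the arms at week 8 differed by a median of 0.86 in size. For miR-144 the difference was 1.56, the 15th in order of size. In 15 of the 76 hairpins both arms were called in opposite directions at week 8, against 0 at week 1 and 0 at week 4. That count rests on TMM: it was 13 to 16 with the library size, RLE and factors without the 4 miRNAs, and 0 with UniSp2 scaling, where nearly all miRNAs were lower. The arm difference of miR-144 was 1.58 with UniSp2 scaling.

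The ratio of miR-451-5p to miR-23a-3p had a median of 4.93 before surgery. The later medians were 6.70 (week 1), 5.89 (week 4) and 8.18 (week 8). It rose in 11 of 12 rats by week 8 (mean log2 change 0.80, SD 0.47, exact permutation adjusted p = 0.00366). At week 1 it was also higher in 11 of 12 rats (0.52, SD 0.68), with an exact permutation p of 0.0239 and an adjusted p of 0.0718. Rat 21 alone was lower then, and without it the change was 0.67 (exact permutation adjusted p = 0.00366). At week 4 the change was 0.40 (SD 0.67, 9 of 12 rats, exact permutation adjusted p = 0.150), and 0.52 without rat 21 (adjusted p = 0.0293, exact). In single samples the ratio ran from 1.68 to 12.8. miR-23a-3p itself had log2 fold changes of -0.00 at week 1 and 0.27 at week 8 (edgeR, FDR = 0.0304), but -1.67 at week 8 with UniSp2 scaling (edgeR, FDR = 9.98e-15).

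A list of 9 other miRNAs abundant in red blood cells was read beside the 4. All 9 were tested at each week. At week 1, 4 of the 9 rose and 0 fell (miR-15a-5p, miR-25-3p, miR-92a-3p and miR-93-5p), beside 12.5% higher and 9.05% lower over all miRNAs tested. The median log2 fold change was 0.21 against -0.01 over all. With the library size alone 2 of 9 rose, and with UniSp2 scaling 0 passed and the median was -0.09. The largest change was that of miR-93-5p (0.45, edgeR, FDR = 0.00759) and the lowest value that of miR-15b-5p (-0.08, edgeR, FDR = 0.805). At week 4, 0 of 9 were called by edgeR, 7 had an unadjusted p under 0.05, and the median was 0.27 (-0.10 with UniSp2 scaling, 0 called). Over all 645 miRNAs at week 4, 0.155% were called higher and 4.03% lower, and 115 had an unadjusted p under 0.05 with edgeR.

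At week 8 this list split too: 5 of 9 were called higher and 3 lower (14.2% and 26.1% over all miRNAs), with a median of 0.39 against -0.26 over all miRNAs tested on the TMM scale, whereas with UniSp2 scaling all 9 were lower. miR-363-3p had the highest value (1.01, edgeR, FDR = 7.24e-06, but -0.90 with UniSp2 scaling) and miR-15b-5p the lowest (-1.05, edgeR, FDR = 5.82e-05). Against week 4, 2 of 9 were called higher and 4 lower with TMM, 4 and 4 with the library size alone, 5 and 3 with RLE and 0 and 9 with UniSp2 scaling. Over all miRNAs tested, 14.3% were called higher and 25.8% lower with TMM in that comparison. The calls over all miRNAs were 80 higher and 122 lower with the library size, 106 and 112 with RLE and 1 and 467 with UniSp2 scaling. Summed, the 9 miRNAs held 181115 to 219888 RPM before surgery and 187088 to 241519 RPM at week 8, with 187922 to 245833 RPM (week 1) and 182537 to 255594 RPM (week 4) between. The ranges overlapped, but within rats the sum was above baseline in 10 of 12 at week 1 (not in rats 3 and 29), in 12 of 12 at week 4 and in 11 of 12 at week 8 (not in rat 26), by medians of 1.10-fold, 1.10-fold and 1.12-fold in RPM. These were not tested.

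**Figure D4:**
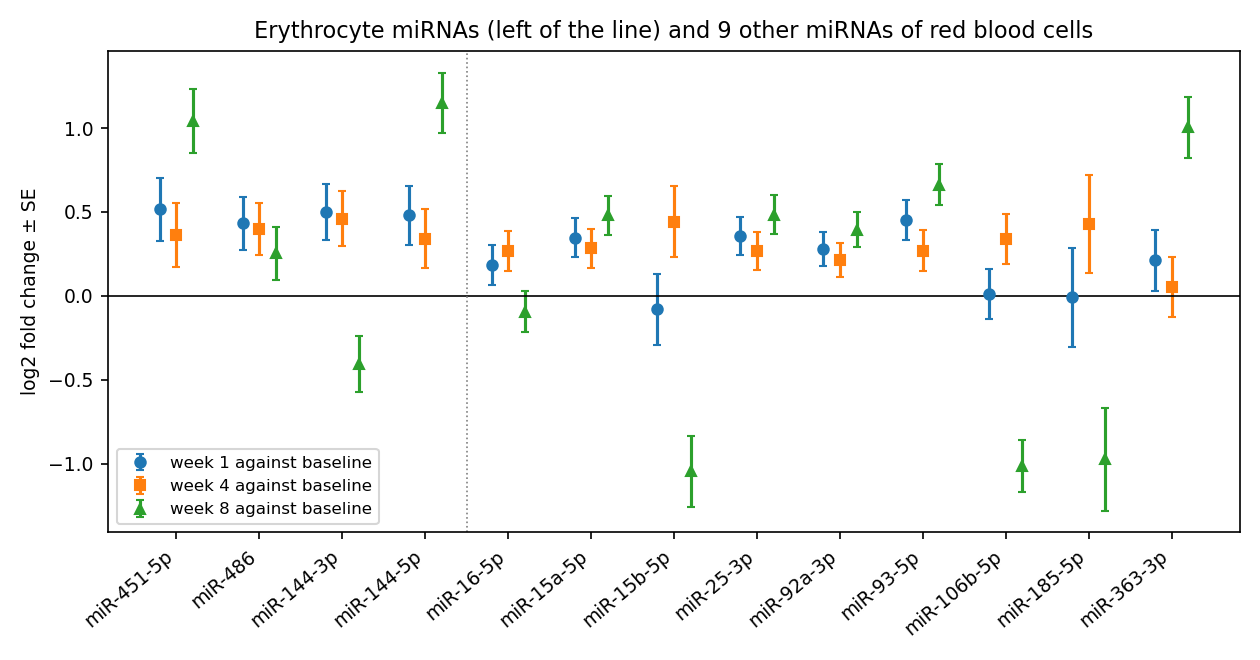
log2 fold change against baseline (± SE, TMM scaling) of the 4 miRNAs and of 9 other miRNAs of red blood cells at weeks 1, 4 and 8. Week 1 and week 4 values lie near or above 0 for nearly all 13 miRNAs, while week 8 values spread from -1.05 to 1.15. With UniSp2 scaling all 13 week 8 values are below 0.

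Some markers of other cells were also called at week 8, on the TMM scale (with UniSp2 scaling all 14 were lower). Over all miRNAs 14.2% were called higher and 26.1% lower there. Of 5 leukocyte miRNAs 2 were called higher and 3 lower at week 8, with a summed level of 9162 to 20855 RPM against 15728 to 59469 at baseline. miR-142-3p (1.16) and miR-142-5p (-1.26), the arms of 1 hairpin, went opposite ways (edgeR, FDR = 2.68e-08 for miR-142-3p). Of 5 platelet miRNAs 0 rose and 1 fell (miR-24-3p, edgeR, FDR = 6.47e-11), with 63027 to 101800 RPM against 79666 to 100799. Of 4 liver miRNAs 0 rose and 2 fell, with 3365 to 10881 RPM against 4341 to 13849.

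At week 1, 0 of the 5 leukocyte and 0 of the 5 platelet miRNAs were called by edgeR, with 1 in each list at an unadjusted p under 0.05, and 2 of 3 liver miRNAs tested were higher. Over all 232 miRNAs tested 12.5% were called higher and 9.05% lower, and 79 had an unadjusted p under 0.05. The 3 liver miRNAs ran from 0.02 (miR-192-5p) to 1.22 (miR-122-3p) in log2 fold change. Their median of 0.97 was above the values of the 4 erythrocyte miRNAs (0.43 to 0.52). The liver miRNA miR-194-5p was below the filter, and with it the median was 0.54. With UniSp2 scaling the median of the 4 liver miRNAs was 0.33, with 1 called higher and 0 lower. On that scale 0 of 5 leukocyte and 0 of 5 platelet miRNAs had a positive value, with 2 and 1 called lower. Over all miRNAs 3 were called higher and 59 lower with UniSp2 scaling. The sums of the leukocyte, platelet and liver lists at week 1 were 12199 to 40746, 72436 to 104662 and 3931 to 19631 RPM. At week 4, edgeR called 0 miRNAs of the 3 lists (1, 2 and 1 with an unadjusted p under 0.05), with 12913 to 53462, 86817 to 111141 and 7265 to 14916 RPM. Over all 645 miRNAs 0.155% were called higher and 4.03% lower there, and 115 had an unadjusted p under 0.05. No marker of the lists was at 0, apart from miR-194-5p of the liver list in 1 library. The part of these cells and of the UniSp2 difference in the results was not tested.

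Across the 48 samples, the miRNA most like miR-451-5p in its course was miR-144-5p (Spearman's rho 0.92 of log2(RPM + 1)), followed by miR-301a-3p (0.87) and miR-15a-5p (0.83). The miRNAs most like miR-144-5p were miR-451-5p, miR-301a-3p (0.80) and miR-181c-5p (0.79). For miR-144-3p they were miR-15b-3p (0.76), miR-193b-3p (0.75) and miR-18a-5p (0.72), while miR-144-5p ranked 166 of 309 (rho -0.08). For miR-486 the values were lower: miR-92a-3p (0.49), miR-106b-3p (0.49) and miR-25-3p (0.47). These are descriptions over 48 libraries of 12 rats, which share rats and the week 8 difference.

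Within a time point the rats' levels can be compared without that difference. miR-451-5p and miR-144-5p went together at baseline (Pearson's r 0.91, Spearman's rho 0.84, n = 12, permutation p = 0.00012 and 0.00098, adjusted p = 0.00144 and 0.00824 over 24 tests). Without the 2 rats farthest from the median, r was 0.68. At week 1 r was 0.90 and rho 0.91 (n = 12, permutation p = 1e-04 and 0.00013, adjusted p = 0.00144 and 0.00312), and r was 0.88 without 2 rats. At week 4 r was 0.80 and rho 0.77 (n = 12, permutation p = 0.00211 and 0.00487, adjusted p = 0.00892 and 0.0195; r = 0.67 without 2 rats).

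At week 8 the same pair had r 0.64 and rho 0.60 (n = 12, permutation p = 0.0239 and 0.0423, adjusted p = 0.0521 and 0.0781), and r fell to 0.49 without 2 rats. miR-451-5p and miR-144-3p passed at week 8 (r 0.82, rho 0.81, n = 12, permutation p = 0.00139 and 0.00234, adjusted p = 0.00834 and 0.014; r = 0.77 without 2 rats). That pair had also passed at baseline (r 0.73, rho 0.85, n = 12, permutation adjusted p = 0.0176 and 0.00824) and week 1 (r 0.80, rho 0.78, adjusted p = 0.00892 and 0.0184), but not at week 4 (r 0.48, rho 0.58, n = 12, permutation p = 0.117 and 0.0517, adjusted p = 0.176 and 0.0887). Rats with more miR-451-5p tended to have more miR-144-3p at week 8, although the ratio of the pair had shifted in all of them. The arms of miR-144 had r between 0.39 (week 4) and 0.79 (week 1), with a permutation adjusted p under the threshold at week 1 (0.00834 for r, 0.027 for rho, n = 12).

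miR-486 was not tied to miR-451-5p at baseline, where r was -0.01 and rho 0.17 (n = 12, permutation p = 0.979 and 0.604, adjusted p = 0.992 and 0.725). At week 1 r was 0.65 and rho 0.66 (n = 12, permutation p = 0.02 and 0.0222, adjusted p = 0.048 and 0.0593; r = 0.51 without 2 rats). At week 4 the values were 0.15 and 0.07 (n = 12, permutation p = 0.644 and 0.832, adjusted p = 0.772 and 0.868). At week 8 they were 0.67 and 0.64 (n = 12, permutation p = 0.0189 and 0.0278, adjusted p = 0.048 and 0.0607; r = 0.53 without 2 rats). Shares of 1 library are tied to each other, because a rise of an abundant miRNA lowers all others.

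The study asked whether plasma miRNAs differ between strong and weak regenerators. For these 4 miRNAs the groups overlapped at every time point. At baseline, before any surgery, miR-451-5p had 31117 to 120479 RPM in strong regenerators (median 79413) and 64458 to 113947 RPM in weak regenerators (median 84758). The widest gap between medians, as a difference in RPM and not as a fold, came at week 8. It had 114998 to 175680 RPM (median 142748) in strong and 130893 to 194617 RPM (median 169671) in weak regenerators. For miR-144-5p the week 8 values were 1238 to 1844 RPM (median 1451) and 1340 to 2668 RPM (median 1807), with 3 weak regenerators above every strong one.

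Over all time points the log2 fold change of strong against weak regenerators was -0.14 (SE 0.13) for miR-451-5p, -0.06 (SE 0.12) for miR-144-3p, -0.27 (SE 0.12) for miR-144-5p and -0.14 (SE 0.11) for miR-486. None of the 4 was called by edgeR, DESeq2 or limma-voom, and in each tool 1 of them had an unadjusted p under 0.05. With edgeR this was miR-144-5p (FDR = 0.372 after adjustment over all 645 miRNAs). Over all 645 miRNAs edgeR called 0 (0.0%), with 64 at an unadjusted p under 0.05, and DESeq2 and limma-voom 0, with 41 and 32. Neither miRNA that the study reported was thus called here, and the reason for this difference was not tested. The 95% interval for miR-144-5p ran from -0.51 to -0.04, but the edgeR fit ignores that each rat gave 4 samples, and its intervals may be too narrow. With the 4 samples of each rat summed (12 sums), the value for miR-144-5p was -0.17 (SE 0.15, edgeR, FDR = 0.888) and did not have an unadjusted p under 0.05. With the rat as a random effect it was -0.31 (SE 0.13, limma-voom, unadjusted p = 0.0196, FDR = 0.775).

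At single time points 0 of the 4 were called at baseline (0 of 645 miRNAs, 0.0%), week 1 (0 of 645, 0.0%), week 4 (0 of 645, 0.0%) and week 8 (1 of 645, 0.155%). At each of these edgeR gave 0 of the 4 an unadjusted p under 0.05, DESeq2 and limma-voom called 0, and limma-voom had 1 with an unadjusted p under 0.05 at week 1. At week 8 all 4 values were negative, from -0.47 (miR-144-5p, SE 0.24, edgeR, FDR = 0.747) to -0.31 (miR-144-3p, SE 0.24, edgeR, FDR = 0.802). The interval for miR-451-5p at week 8 was -0.88 to 0.17 and still held differences of nearly 1 log2 unit.

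**Figure D5:**
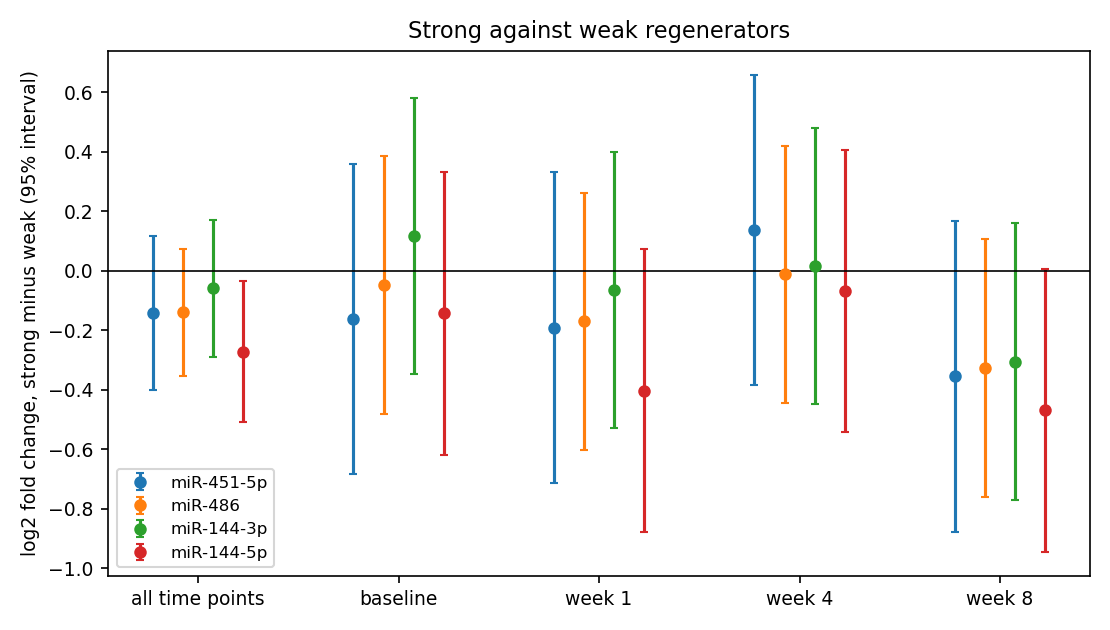
log2 fold change of strong against weak regenerators (95% interval, edgeR) for each miRNA over all time points, at baseline and at weeks 1, 4 and 8. The intervals of all single time points include 0, and over all time points the interval of miR-144-5p (-0.51 to -0.04) lies below 0 without adjustment, in a fit that ignores which samples share a rat.

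The changes from baseline were also compared between the groups. The difference of the change at week 8 was -0.19 (SE 0.38) for miR-451-5p, -0.42 (SE 0.34) for miR-144-3p, -0.33 (SE 0.34) for miR-144-5p and -0.28 (SE 0.31) for miR-486. None of the 4 was called at week 1 (0 of 645 miRNAs, 0.0%), week 4 (0 of 645, 0.0%) or week 8 (0 of 645, 0.0%) by edgeR, DESeq2 or limma-voom, and 0 of the 4 had an unadjusted p under 0.05 by any of the 3. At week 8 strong regenerators alone had a log2 fold change of -0.62 for miR-144-3p and weak ones -0.20, but the difference between them did not pass (edgeR, FDR = 1.000).

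The ratios gave no difference between the groups that passed either. The log2 ratio of miR-144-5p to miR-144-3p, averaged over the 4 samples of a rat, was -1.86 (SD 0.15, n = 6) in strong and -1.66 (SD 0.22, n = 6) in weak regenerators (exact permutation test over all splits of the rats, p = 0.0952, adjusted p = 0.476 over 5 ratios). The other 4 ratios had exact permutation p-values between 0.266 and 0.656. For miR-451-5p to miR-23a-3p the means were 2.51 (SD 0.63, n = 6) and 2.65 (SD 0.22, n = 6, exact permutation p = 0.604).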

How the data were processed

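Small RNA of plasma was sequenced after single-adapter ligation (48 samples, 12 rats, 4 time points). The authors trimmed reads with cutadapt 3.3, aligned them with Bowtie 1.3.0 and miRDeep2 to the rat genome Rnor_6.0 and to the miRBase set for rat. What was deposited are raw, unnormalised counts of 645 miRNAs and of spike-ins. Each row is a named mature miRNA, and miR-486 is listed without an arm.

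RPM was computed from the counts over the miRNA total. Weeks and regeneration groups were compared on the deposited counts with edgeR 4.0.16 (quasi-likelihood test of version 3, TMM factors, Benjamini-Hochberg after an independent filter on mean RPM, FDR threshold 0.05, two-sided) over all 48 samples, with R 4.3.3, limma 3.58.1 and DESeq2 1.42.0. Group comparisons at 1 time point used a factor of 8 levels. Log2 ratios of RPM + 1 were tested by exact two-sided permutation over rats (4096 sign patterns, or all splits into 6 and 6), correlations by 100000 permutations. Baseline samples, which the labels give no regeneration group, were placed by their animal number. A number names 1 rat, so its 4 samples are paired (mean correlation of deviations from the group mean 0.107, against -0.03 between rats). Lists of 9 red cell, 5 platelet, 5 leukocyte and 4 liver miRNAs were described by counts, and values given for their largest and smallest change. The miRNAs named as alike are the 3 with the highest Spearman correlation at a mean of at least 10 RPM. The miRNAs and lists were chosen with earlier results of these data known. Replicates differed by more than counting (chi-square per degree of freedom 17.3 to 340 in 120 pairs). The scripts were tested on simulated data. Alternatives were other scalings, filters, tools, blocks and samples, and leaving out each rat.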

Additional observations from a re-analysis of the deposited data

Results flagged for a closer look

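Among 72 sets of 6 samples (the 4 miRNAs and 5 ratios in 8 groups), 5 had a sample that lay far from the others of its group by Dixon's test; chance alone gives about 1 in 20. miR-144-3p was 3130 RPM in strong regenerator rat 2 at week 8, where the next highest was 2301. miR-486 was 132058 RPM in weak regenerator rat 7 at week 1, where the next highest was 94605. The log2 ratio of miR-144-5p to miR-144-3p was -2.80 in strong regenerator rat 29 at baseline, next to -2.27. The log2 ratio of miR-451-5p to miR-144-3p was 4.09 in strong regenerator rat 5 at week 4, below the nearest value of 4.47, and 6.30 in weak regenerator rat 3 at week 8, above the nearest value of 6.01. No difference between strong and weak regenerators in a change from baseline passed its test for these miRNAs.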

How the results depend on the processing

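At week 1, where 4 of 4 miRNAs were called, 0 were called with scaling to the library size, with UniSp2 scaling, without a filter and with limma-voom, 1 with filterByExpr, and 2 when only the samples compared entered the fit; leaving out 1 rat gave 0 to 3. At week 4, where 0 were called, 1 was called with only the samples compared, and 0 to 1 without 1 rat. With UniSp2 scaling the log2 fold change at week 8 against baseline reversed for miR-451-5p (-0.93), miR-144-5p (-0.79) and miR-486 (-1.68), and against week 4 for miR-451-5p (-0.91) and miR-144-5p (-0.77). The ratio of miR-451-5p to miR-23a-3p without 1 rat ranged from 0.44 to 0.67 at week 1 and from 0.30 to 0.52 at week 4, and both passed only without rat 21. With the rat as a block (samples of a rat paired), the log2 fold changes of miR-451-5p were 0.51 at week 1 and 1.06 at week 8, 4 and 3 miRNAs were called, and the block changed no call of the 4 miRNAs. Of the 324 values of the 4 miRNAs between regeneration groups under other settings, and of the 384 without 1 rat, none was called. For the ratios, adding 10 RPM in place of 1 before the log2 changed no call. The median change over rats, which has no test, lay within the SD of the mean change for each ratio and week. Over all miRNAs, the 50 called at week 1 became 32 with the library size and 25 without a filter, and with UniSp2 scaling the 27 called at week 4 became 61, the 250 at week 8 became 499 and the 213 between weeks 4 and 8 became 468. Between weeks 1 and 4, DESeq2 called 1 and the block 4 in place of 0. The 1 miRNA called between regenerators at week 8 was lost with UniSp2 scaling, the version 4 method of edgeR, DESeq2 and only the samples compared. A change of sign in a value not called before or after was not counted as reversed. The cause of these changes was not tested. The smallest count of the 4 miRNAs was 235 reads.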

Other observations

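The 3p arm of the miR-451 hairpin has a row of its own in the table. It had 3 to 31 reads per sample, against 21634 to 173181 reads of miR-451-5p. Its log2 fold change was 0.64 at week 1 (SE 0.32, below the filter on low levels) and 0.53 at week 8 (SE 0.32, edgeR, FDR = 0.196, but -1.36 with UniSp2 scaling), and it ranked number 4 among the miRNAs most like miR-486 (Spearman's rho 0.46 over 48 samples).

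In reads per UniSp2 read, the medians of miR-451-5p were 2.36, 2.61, 2.17 and 1.31 in order of time from baseline to week 8. Those of miR-486 were 2.21, 2.28, 2.10 and 0.686. For miR-144-3p they were 0.101, 0.122, 0.108 and 0.0195, and for miR-144-5p 0.0234, 0.0253, 0.0207 and 0.0135.

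Single rats did not keep their order. Rat 29 had the lowest miR-451-5p of all samples at baseline (31117 RPM), with 2.89 reads of miR-486 per read of miR-451-5p, the highest of the 48 samples. Rat 21 had 100150 RPM of miR-451-5p at baseline and 63656 RPM at week 1, where its UniSp2 value was 60.3 per 1000 miRNA reads, the highest of that week. Both rats were named after their values were seen.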
